A study of Mus musculus with 28 samples.

Results

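The authors listed 532 chromatin regions as opened after deletion of Yap in alveolar type 2 (AT2) cells of the mouse lung. All 532 entries of that list were taken, out of 8617 regions in the 4 lists of opened and closed regions of the study. The lists rest on ATAC-seq, in which a transposase inserts sequencing adapters where DNA is accessible. The regions were thus chosen by their ATAC signal, higher after deletion, read in 2 Yap deleted libraries against 1 control library, so neither the opening nor its score was tested here. Every region carried both comparisons, each deleted library against the control, and the opened and the closed list thus share the same 1 control library.

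Yap, made from the gene Yap1, is a transcriptional coactivator held in check by the Hippo kinases, and it acts on DNA through TEAD factors. In the lung alveolus AT2 cells make surfactant and serve as progenitors of the flat AT1 cells, and Yap is known for its part in that transition. Accessible regions at a start site usually mark a promoter, while those within introns or between genes are often enhancers, whose target need not be the nearest gene.

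Yap deleted mice had the genotype Yapflox/flox SftpcCreert2, and their controls were Yapflox/flox without the driver. The driver is an inducible Cre made by cells that express the surfactant gene Sftpc, so recombination is limited to AT2 cells and their descendants. The alleles were recombined at postnatal day 3 and cells collected at postnatal day 14. EPCAM-positive epithelial cells were sorted after depletion of leukocytes, erythroid cells, endothelium and part of the stroma by surface antigens (CD31, CD45, Ter119, CD16/32, CD271, CD90.2), and 50000 cells per sample went into ATAC libraries while the others gave RNA. RNA was read in 5 deleted and 4 control libraries (31947748 to 42924739 counts each). A second line of the study, called Yap active by the labels, has floxed Hippo kinase genes Stk3 and Stk4 and its own controls. Its alleles were also recombined at postnatal day 3 and its cells collected at postnatal day 14. This line supplied 6 treated and 4 control RNA libraries (34979553 to 43544559 counts each). The labels do not state that libraries came from separate animals, so p-values measure the spread between these samples only.

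The RNA libraries were checked against their labels. Yap1 lay at 78.3 to 142 CPM (read counts scaled to a common library size) in the deleted libraries and at 119 to 215 CPM in controls, with control 2 lowest, under deleted library 2. Esr1, the gene of the receptor fused to Cre in such drivers, lay at 242 to 531 CPM in the deleted libraries, at 87.1 CPM in the library labelled control 2 and at 0.952 to 3.91 CPM in the other controls. All 8 AT2 markers had counts in every library, with a summed level of 34199 to 62382 CPM in deleted and 20532 to 83538 CPM in control libraries. The sort also held other epithelium. AT1 markers summed to 1930 to 6446 CPM in deleted and 2339 to 9719 CPM in control libraries. Markers of airway club cells summed to 10425 to 24080 CPM and 7811 to 41342 CPM. Endothelial markers, which the CD31 depletion should remove, summed to 1785 and 1525 CPM in controls 1 and 2 and to 45.4 to 126.6 CPM in the other libraries. Leukocyte markers summed to 101 to 643 CPM in the 4 controls and to 32.8 to 61.6 CPM in deleted libraries. Ciliated markers summed to 241 and 191 CPM in controls 1 and 2 and to 855 to 1420.1 CPM elsewhere. Libraries are called by their labels. For many of the genes described, the change in RNA is also given without controls 1 and 2. Other results, among them those of Dnah5, Lrp5 and Ldhd, are given with all libraries only. In such bulk RNA, fewer cells of a type and less RNA per cell cannot be told apart.

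Several opened regions covered the stretch just before a start site, and 6 of these are shown because their genes are described below or because they hold a match to a factor of the Yap and lung epithelial pathways. Each line gives the 250 bases that end at a start site of the gene, 5′ to 3′ on its own strand, from RefSeq on GRCm38.p6, the assembly that the lists call mm10. Capitals mark the matches. The windows lie at chr11:75168153-75168402 (Hic1, minus strand), chr4:64046937-64047186 (Tnc, minus), chr2:164857709-164857958 (Pltp, minus), chr11:47379326-47379575 (Sgcd, minus), chr17:71311012-71311261 (Emilin2, minus) and chr7:142969265-142969514 (Ascl2, minus).
Hic1: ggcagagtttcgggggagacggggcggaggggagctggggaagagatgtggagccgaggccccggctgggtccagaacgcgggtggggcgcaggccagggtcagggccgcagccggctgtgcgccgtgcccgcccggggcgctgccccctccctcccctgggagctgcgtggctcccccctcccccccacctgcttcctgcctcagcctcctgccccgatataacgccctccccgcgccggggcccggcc
Tnc: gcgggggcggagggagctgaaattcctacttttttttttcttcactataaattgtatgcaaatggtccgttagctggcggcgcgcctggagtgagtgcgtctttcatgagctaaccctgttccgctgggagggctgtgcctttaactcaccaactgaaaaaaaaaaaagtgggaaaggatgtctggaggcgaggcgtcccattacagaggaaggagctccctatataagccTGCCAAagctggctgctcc
Pltp: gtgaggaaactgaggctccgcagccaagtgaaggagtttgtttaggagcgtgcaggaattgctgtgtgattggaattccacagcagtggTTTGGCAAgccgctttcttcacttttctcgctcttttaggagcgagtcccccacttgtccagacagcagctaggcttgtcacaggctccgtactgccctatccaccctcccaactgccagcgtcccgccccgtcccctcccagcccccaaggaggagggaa
Sgcd: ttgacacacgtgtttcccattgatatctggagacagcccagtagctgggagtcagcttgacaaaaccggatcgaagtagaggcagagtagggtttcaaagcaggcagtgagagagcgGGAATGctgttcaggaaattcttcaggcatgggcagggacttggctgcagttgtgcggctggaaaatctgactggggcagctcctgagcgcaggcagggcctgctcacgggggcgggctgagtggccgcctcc
Emilin2: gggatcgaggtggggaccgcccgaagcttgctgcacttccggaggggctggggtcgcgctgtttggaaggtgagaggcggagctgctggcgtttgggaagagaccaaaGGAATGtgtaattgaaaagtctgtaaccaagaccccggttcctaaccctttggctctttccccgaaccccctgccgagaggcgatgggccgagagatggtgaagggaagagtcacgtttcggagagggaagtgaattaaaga
Ascl2: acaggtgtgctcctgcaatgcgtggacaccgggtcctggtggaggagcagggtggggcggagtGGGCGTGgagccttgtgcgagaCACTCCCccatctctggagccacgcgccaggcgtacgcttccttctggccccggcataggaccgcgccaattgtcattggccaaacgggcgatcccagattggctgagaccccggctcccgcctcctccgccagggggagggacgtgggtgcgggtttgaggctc

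Sgcd, for a dystrophin-associated sarcoglycan, and Emilin2, for an elastic fibre glycoprotein, each held the TEAD motif GGAATG, at bases -133 to -128 and -142 to -137 counted from the start site. Tnc, for the matrix protein tenascin C, held the NFI motif TTGGCA on the opposite strand at -19 to -14 of the start site shown. A second window of Tnc inside the region, at the start site 79 bases away that the authors' distance uses, held no match. In Pltp, for a phospholipid transfer protein, the NFI match at -160 to -155 lay within the CEBP match TTGCNNAA at -161 to -154. Ascl2, for a basic helix-loop-helix transcription factor of stem cells, held the KLF motif GGGNGTG at 2 places. Hic1, for a zinc finger repressor, held none of the 8 motifs searched.

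In all, 29 genes had such a window wholly inside an opened region, and both strands were searched, in 1 window per gene. The TEAD motif stood in 4 of 29 (13.8%) against 12.6% of all 27018 RefSeq promoter windows. For NFI the count was 3 (10.3%, with Tnc counted by the window shown) against 12.5%, for CEBP 2 (6.90%) against 9.56%, and for KLF 10 (34.5%) against 26.0%. The KLF count includes Mxra7 by a window with 2 matches, while its second window, 81 bases away, held 0. The AP-1 motif TGANTCA and the GATA motif AGATAA stood in 1 window each (3.45%), against 6.87% and 10.3%. The NKX2-1 motif CACTTGA and the FOX motif TGTTTAC matched in no window, against 2.74% and 3.09% of all promoters. With 29 windows a single window makes 3.45%, and no match says only that these letters are not in this stretch. The opened windows had a median GC content of 58.0%, against 52.0% over all, and a median of 11 CpG dinucleotides against 6.

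An opened region also covered the hairpin gene Mir199a-2, whose miRNAs are known from mesenchymal cells, on chromosome 1 (chr1:162216989-162218778, score 35.4, centre 69 bases past the start site). Its mature miRNAs are shown with the seed, bases 2 to 8, in capitals. The region of Mir1895 (chr3:134240429-134241185, score 20.4) covered its hairpin as well.
miR-199a-5p: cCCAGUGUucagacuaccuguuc
miR-199a-3p: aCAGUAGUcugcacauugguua
miR-1895: cCCCCGAGgaggacgaggagga

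The 3 seeds differ, so these miRNAs form no seed group. RNA libraries selected for poly(A) do not measure mature miRNAs, and the Mir199a-2 row of the count table was at 0 in all 9 libraries.

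Most opened regions lay away from promoters, and the share at promoters was larger than in the closed list. The regions had a median length of 1207 bases (502 to 3406) and a median score of 22.4 (8.04 to 95.95), where the score is the authors' value on a scale the sources used here do not give. The annotation placed 227 in introns (42.7%, 95% exact binomial interval 38.4 to 47.0%) and 215 between genes (40.4%). Promoters held 50 (9.40%, 7.06 to 12.2%), against 18 of the 676 closed regions (2.66%, 1.59 to 4.18%). In the Yap active line promoters held 29.6% of opened and 2.80% of closed regions, so this contrast was not particular to Yap deletion. The other annotations were 12 in 5′ UTRs, 11 in exons, 9 in 3′ UTRs, 6 at transcript ends and 2 in non-coding transcripts. Intervals cover counting error only, since all regions of a list share the same libraries.

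Start sites showed the same pattern. The centre lay within 1 kb of the nearest start site for 86 opened regions (16.2%, 13.1 to 19.6%), against 35 closed regions (5.18%, 3.63 to 7.13%). More than 100 kb away lay 14.7% of opened and 25% of closed regions. The median distance was 23.2 kb, and the farthest region lay 655 kb from the start site of its gene. Among intronic regions, 96 of 227 (42.3%, 35.8 to 49.0%) were in the first intron, against 31.5% (26.6 to 36.8%) in the closed list. The centre fell in a LINE, SINE or LTR repeat in 39 opened regions (7.33%) and 111 closed ones (16.4%), and in a CpG island in 10 opened and 0 closed regions. The opened and closed lists of the Yap active line differed in the same directions. Within 1 kb of a start site lay 47.1% and 5.10% of their regions, and 50.7% and 26.6% of their intronic regions were in the first intron. Repeats held 5.40% and 17.2% of the centres, and CpG islands 7.23% and 0.431%.

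**Figure D1:**
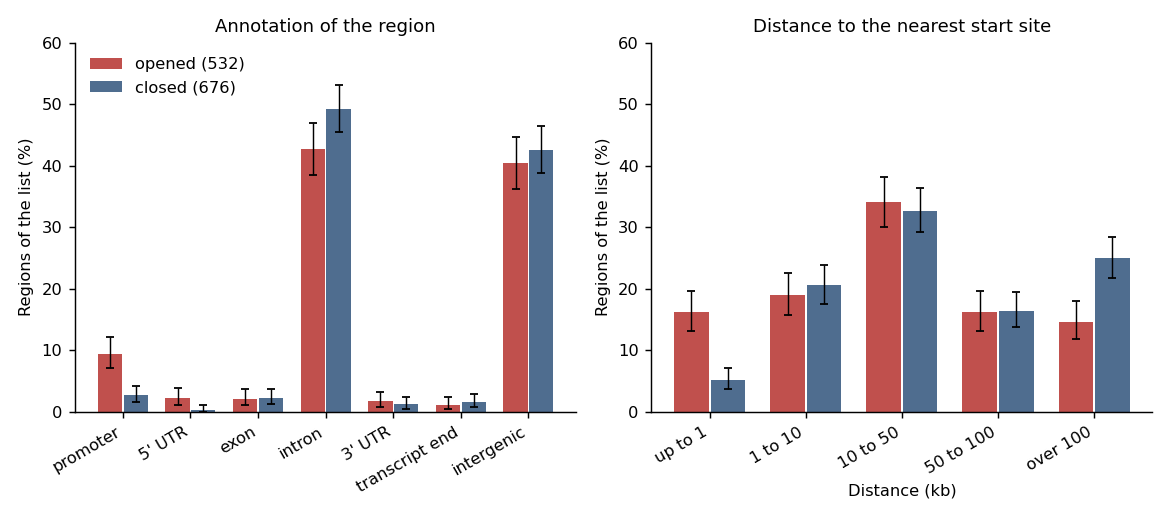
Share of regions (%, bars) by annotation class and by distance to the nearest start site (kb) for the 532 opened and 676 closed regions of the Yap deleted line, with 95% exact binomial intervals as error bars. Opened regions are more often at promoters (9.40% against 2.66%) and within 1 kb of a start site (16.2% against 5.18%).

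Protein-coding genes were named for 442 opened regions (83.1%), non-coding RNA genes for 83, pseudogenes for 6 and a snoRNA for 1. Regions named 512 different genes, and 18 of these genes had more than 1 region. Tenm4, for a teneurin of cell contacts, and Aebp2, for a cofactor of Polycomb repressive complex 2, had 3 regions each. The regions of Tenm4 lay 228 kb and 197 kb before the start site and at the promoter, with scores of 56.6, 40.0 and 8.44, the last among the lowest of the list.

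The highest scores went mostly to regions outside promoters. The region of score 95.95 lay in intron 1 of the non-coding RNA gene 3100003L05Rik (chromosome 7, 124676343 to 124677780). Next came regions 41.7 kb before Tspan8, for a tetraspanin (score 82.95), 56.0 kb before C1galt1, for the enzyme that makes core 1 O-glycans (75.4), and in intron 1 of Slc35f1, for a solute carrier (71.55). The region at the promoter of Cdh11, for a cadherin of mesenchymal cells, followed with a score of 62.5 (chromosome 8, 102784447 to 102785982). Regions of Adgrl3, 1700065J11Rik, Bod1, Sbk3 and Prkcd completed the 10 highest, with scores of 57.35 to 62.25. The lowest scores in the list were 8.27 at Ust and 8.04 at Dppa3.

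Of the 86 regions within 1 kb of a start site, that of Cdh11 scored highest, followed by Eln, for elastin (score 54.25, centre 322 bases before the start site). Next were 2610203C22Rik (51.35), Hic1 (46.2), Cyp2d22, for a cytochrome P450 (44.45), Pde10a, for a phosphodiesterase (44.2), and Bmp7, for a bone morphogenetic protein (43.05). Genes for matrix proteins were among the others, a grouping made after the names were seen and not tested: Tnc (34.05), Lama4, for a laminin chain (32.85), and Col1a1, for a collagen I chain (29.6), also had such regions. Further regions stood at S1pr3, for a sphingosine-1-phosphate receptor (31.8), and at Zeb2, for a repressor of epithelial genes (26.3).

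The 14 lists of cell type and pathway genes held 12 genes named for opened regions among 346 entries (3.47%, Etv4 counted in 2 lists), where 2.08% of the 23478 genes of the count table were so named. The AT2 list had 0 of 30 genes named for an opened region and 5 named for a closed one (Acot7, Ctsh, Cxcl15, Il33 and Sftpd). In the AT1 list 1 of 30 genes, Ahnak, was named for an opened region and 4 for closed ones (Akap5, Cldn18, Lmo7 and Mal2). Of 28 Yap and Tead target genes 1, Rbms3, had an opened region, and of 28 Hippo pathway components 0. Among 44 signalling genes the opened regions named Axin2, Etv4, Smad3 and Smad7, and among 35 lung epithelial transcription factors Elf5 and Etv4. The endothelial list gave Cldn5 and Ednrb of 18 genes, the mesenchymal and mesothelial list Col1a1 of 19 and the ciliated list Dnah5 of 16. The lists for AP-1 factors (13 genes), leukocytes (22), club and goblet cells (17), basal and transitional cells (16) and sterol and fatty acid synthesis (30) each had 0. Closed regions named 6 signalling genes, and 2 genes each of the Hippo, lung transcription factor and sterol lists. They named 1 gene each of the AP-1, club and goblet, basal and transitional, and ciliated lists. Of the 23478 genes of the count table, 566 were named for a closed region.

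A small share of the regions was also listed as opened in the Yap active line, in which the Hippo kinase genes Stk3 and Stk4 are floxed and which has its own controls. Of the 532 opened regions, 40 (7.52%, 5.43 to 10.1%) overlapped a region opened in that line by at least 1 base, which is 0.665% of its 6017 opened regions. The closed list gave 7.99% (6.06 to 10.3%), so the intervals of both lists overlapped. Within 1 kb of a start site 17 of 86 opened regions were shared (19.8%, 12.0 to 29.8%), among them those at Lama4 (chromosome 10, 38964700 to 38966694), Sgcd and Pip4k2a, for a phosphoinositide kinase. No opened region overlapped the 1392 regions closed in the Yap active line, which allows a share of up to 0.564% by a limit of 3 counts, or 0.691% as the upper bound of the exact interval. Of the 676 regions closed after Yap deletion, only 2 overlapped them (0.296%, 0.0358 to 1.06%). The closed list of the Yap active line covers 0.850 Mb, ends in blank lines and may not be whole.

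The Yap active line also has 4 broad peak lists, and the sources used here do not say against what background each was called. At least 1 of the 4 lists overlapped 375 opened regions (70.5%) and 317 closed ones (46.9%). The second control list, with 28418 peaks, overlapped 253 opened regions (47.6%, 43.2 to 51.9%) but 82 closed ones (12.1%, 9.76 to 14.8%). The second active list, with 53714 peaks, overlapped 26 opened regions (4.89%) and 91 closed ones (13.5%). For the first active list the shares were 34.0% and 27.7%, and for the first control list 9.96% and 8.14%. These overlaps rest on weak peaks. No first control peak reached a −log10 q of 1.3, and only 372, 35 and 7 peaks of the first active, second active and second control lists did. At that limit these 3 lists overlapped 0, 0 and 1 of the opened regions. So few peaks cannot show whether the overlaps hold.

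**Figure D2:**
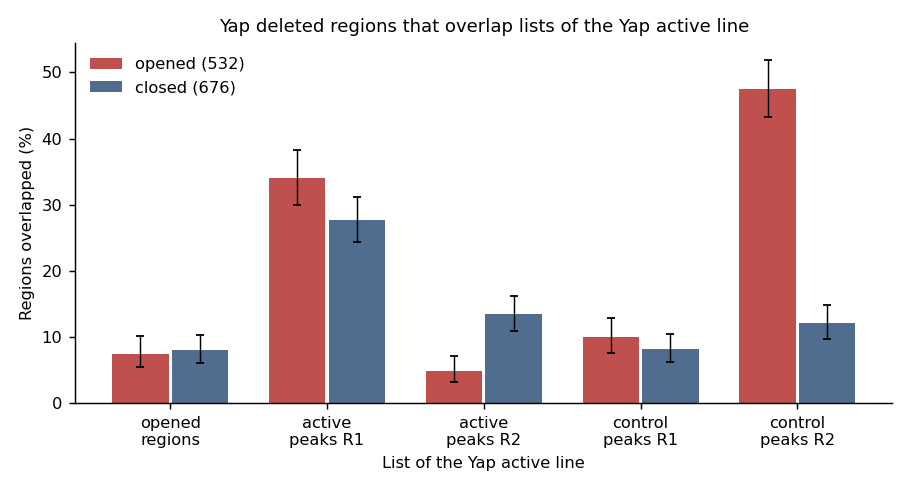
Share of the opened and closed regions of the Yap deleted line (%, bars, with 95% exact binomial intervals) that overlap the opened regions and 4 peak lists of the Yap active line by at least 1 base. The opened regions exceed the closed ones most in the second control peak list (47.6% against 12.1%).

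For RNA of the named genes, edgeR made no call and DESeq2 called 27. Of the 512 genes, 489 were found in the count table and 390 passed the filter on low counts, while 99 did not. By edgeR's quasi-likelihood test with Benjamini-Hochberg adjustment over all genes, 0 of the 390 had an adjusted p under 0.05, where 0.00632% of all 15818 genes (1 gene) did. At an unadjusted p under 0.05, 22 were higher in deleted libraries (5.64%, against 6.13% of all genes) and 42 lower (10.8%, against 9.18%). These shares were near those of all genes. DESeq2 called 8 higher and 19 lower among the 426 to which it gave an adjusted p, against 0.962% and 4.05% of all genes.

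In 12 of the 390 genes every deleted library was above every control (3.08%, against 2.64% of all genes), and in 5 every deleted library was below (1.28%, against 1.25%). Both counts include controls 1 and 2. The median log2 fold change was -0.09, against 0.01 over all genes, with 160 higher and 230 lower. Without controls 1 and 2 it was 0.06, against 0.00559 over all genes. At an unadjusted p under 0.05, 13 genes were then higher (3.30%, against 2.48% of all genes) and 16 lower (4.06%, against 3.71%). With all libraries, genes with a region within 1 kb of the start site gave 1 higher and 5 lower of 69. These are 1.45% and 7.25%, against 6.13% and 9.18% of all genes at an unadjusted p under 0.05. The median of these 69 genes was -0.10. Genes named for closed regions gave 24 higher and 39 lower of 465 (5.16% and 8.39%) and a median of -0.00388. A mean of at least 1 CPM was reached by 72.8% of the 489 genes and by 61.4% of all genes in the table.

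**Figure D3:**
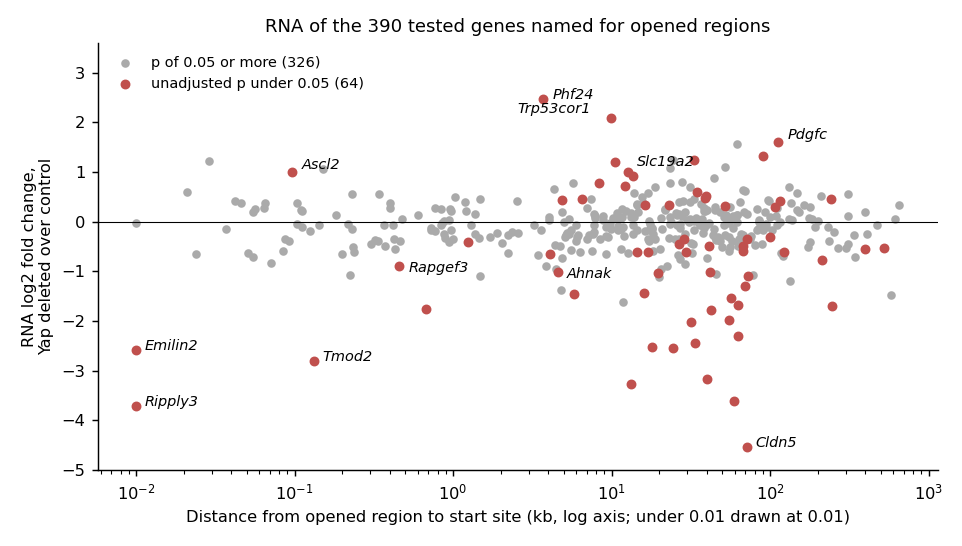
RNA log2 fold change (Yap deleted over control) of the 390 tested genes named for opened regions against the distance of the nearest opened region from the start site (kb, log axis). Red points are the 64 genes with an unadjusted p under 0.05, which lie at all distances; none had an edgeR adjusted p under 0.05.

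Among the genes with the smallest p, Phf24, for a PHD finger protein of neuronal signalling, lay at 28.7, 17.7, 35.5, 37.7 and 40.8 CPM in deleted libraries and at 4.71, 10.1, 3.06 and 5.43 CPM in controls. The groups did not overlap (log2 fold change 2.46 ± 0.38 SE, edgeR adjusted p = 0.149), and its region lay in intron 1 (chromosome 4, 42920402 to 42921534, score 18.65). Pdgfc, for a platelet-derived growth factor that acts on mesenchymal cells, lay at 9.08, 10.2, 6.41, 9.31 and 7.29 CPM against 2.51, 3.47, 3.37 and 1.84 CPM. All deleted libraries were above all controls again (1.60 ± 0.25 SE, edgeR adjusted p = 0.149), with a region in intron 2, 113 kb from the start site.

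Slc19a2, for a thiamine transporter, lay at 25.4, 22.2, 17.0, 19.9 and 19.4 CPM in deleted libraries and at 9.65, 12.5, 8.92 and 10.4 CPM in controls, with no overlap (1.0 ± 0.16 SE, edgeR adjusted p = 0.149). Trp53cor1, a long non-coding RNA of the p53 pathway, lay at 8.74, 7.503, 4.10, 4.14 and 3.82 CPM against 1.14, 2.06, 1.42 and 0.698 CPM. The groups were apart here too (2.09 ± 0.41 SE, edgeR adjusted p = 0.247), and deleted libraries 1 and 2 were highest. Galnt2, for an enzyme that starts O-glycans, lay at 258 to 317 CPM with a median of 308 in deleted libraries and at 174, 184, 218 and 251 CPM in controls (0.51 ± 0.14 SE, edgeR adjusted p = 0.247). Without controls 1 and 2 the log2 fold changes of Phf24, Pdgfc, Slc19a2, Trp53cor1 and Galnt2 were 2.89, 1.66, 1.07, 2.38 and 0.30.

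In the other direction, Ahnak, for a giant scaffold protein listed with AT1 cells, lay at 781, 624.9, 702, 897 and 1248 CPM in deleted libraries and at 2135, 1721, 1599 and 1452 CPM in controls. Every deleted library was below every control (log2 fold change -1.02 ± 0.23 SE, edgeR adjusted p = 0.247), although its region, 4597 bases before the start site, was opened (chromosome 19, 8984057 to 8985317, score 43.85). Rapgef3, for a cAMP-activated exchange factor, lay at 12.7, 10.9, 12.3, 13.6 and 15.5 CPM against 26.4, 31.5, 23.4 and 15.8 CPM (-0.90 ± 0.20 SE, edgeR adjusted p = 0.247). Its groups were also apart, by a narrow gap, and its region lay 457 bases past the start site, in intron 1.

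Ttc39b, for a tetratricopeptide repeat protein of lipid metabolism, lay at 30.9 to 38.9 CPM in deleted libraries and at 42.5 to 54.9 CPM in controls (-0.45 ± 0.11 SE, edgeR adjusted p = 0.247). Swap70, for an actin-binding signalling protein, lay at 69.9 to 91.3 CPM and at 92.8 to 133 CPM (-0.49 ± 0.13 SE, edgeR adjusted p = 0.247). Neither gene's groups overlapped. Without controls 1 and 2 the log2 fold changes of Ahnak, Rapgef3, Ttc39b and Swap70 were -0.88, -0.62, -0.44 and -0.54.

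**Figure D4:**
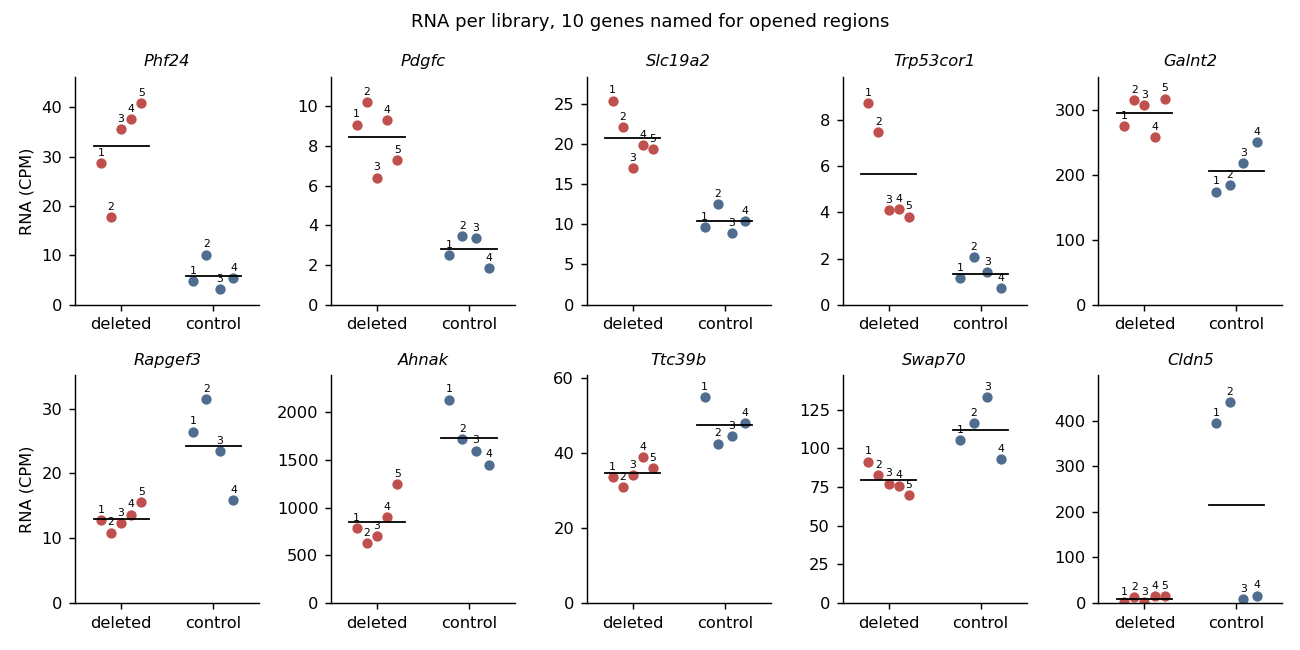
RNA (CPM, axes from 0) of the 5 genes with the smallest p in each direction among those named for opened regions, in 5 Yap deleted and 4 control libraries. Points are libraries with their numbers and lines are group means; in Cldn5 controls 1 and 2 stand apart at 395 and 440.3 CPM.

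Cldn5, for the tight junction protein of endothelium, lay at 2.56, 13.1, 2.59, 14.1 and 14.2 CPM in deleted libraries and at 395, 440.3, 8.92 and 16.2 CPM in controls. Only controls 1 and 2 were high (log2 fold change -4.53 ± 1.20 SE, edgeR adjusted p = 0.247, and -0.47 without them). Ednrb, for an endothelin receptor, had 58.8 and 58.3 CPM in controls 1 and 2 and 5.20 to 10.8 CPM in all other libraries (-1.98 ± 0.57 SE, edgeR adjusted p = 0.247, and -0.27 without them). Controls 1 and 2 were the 2 highest of 9 libraries in 31 of the 42 genes lower at an unadjusted p (73.8%), and in 84.7% of such genes over the whole table. Of the 42, 9 remained lower at an unadjusted p under 0.05 without these libraries, and of the 22 higher genes 5 remained. These are 21.4% and 22.7%, against 13.2% and 21.2% of such genes over the whole table. DESeq2 gave the 10 genes with the smallest p adjusted values from 2.17e-07 for Phf24 to 0.0372 for Galnt2, and Ednrb 0.0127. Endothelial markers had counts for 7 or 8 of 8 in each library. Leukocyte markers had counts for 6 or 7 of the 7 that the count table holds, out of 8 listed. The part of both marker sets in these differences was not tested.

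Among genes with an opened region within 1 kb of the start site, Ripply3, for a corepressor of T-box factors, lay at 0.562, 0.979, 0.564, 0.767 and 2.18 CPM in deleted libraries and at 27.4, 22.9, 1.25 and 1.11 CPM in controls. It was high in controls 1 and 2 only (-3.71 ± 1.0 SE, edgeR adjusted p = 0.247, and -0.26 without them). Emilin2 was at 1.64 to 8.61 CPM in deleted libraries and at 29.3, 74.6, 2.80 and 15.5 CPM in controls (-2.59 ± 0.84 SE, edgeR adjusted p = 0.255, and -0.88 without controls 1 and 2), with overlapping groups.

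Tmod2, for an actin-capping tropomodulin, was at 1.74 to 3.31 CPM against 40.3, 29.0, 2.41 and 1.33 CPM (-2.80 ± 0.88 SE, edgeR adjusted p = 0.248), and turned to 0.45 without controls 1 and 2. Pip4k2a was at 5.97 to 8.12 CPM against 30.6, 49.2, 8.01 and 8.38 CPM (-1.75 ± 0.51 SE, edgeR adjusted p = 0.247, and -0.23 without them). Both were high in controls 1 and 2 alone. Ascl2 lay at 3.27, 2.52, 2.15, 2.15 and 1.61 CPM in deleted libraries and at 0.872, 0.544, 1.87 and 1.43 CPM in controls (0.99 ± 0.39 SE, edgeR adjusted p = 0.303, and 0.47 without controls 1 and 2). Its groups overlapped through deleted library 5 and control 3. These 5 genes and Rapgef3 are the ones with an edgeR unadjusted p under 0.05 among the 69 tested genes within 1 kb. Of the 5, DESeq2 called Ripply3, Emilin2, Tmod2 and Pip4k2a, with adjusted p values of 0.00203 to 0.0222. Of the 75 genes within 1 kb to which DESeq2 gave an adjusted p, it called 0 higher and 5 lower, against 0.962% and 4.05% of all genes.

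The matrix and mesenchymal genes at opened promoters varied widely within both groups. Cdh11 lay at 81.5, 368, 335, 47.8 and 356 CPM in deleted libraries and at 292, 268, 78.0 and 95.01 CPM in controls (0.38 ± 0.67 SE, edgeR adjusted p = 0.781, and 1.42 without controls 1 and 2). Eln lay at 5542, 9790.5, 11434, 2052 and 4962 CPM against 12682, 14628, 5596 and 1891 CPM (-0.36 ± 0.64 SE, edgeR adjusted p = 0.778), and at 0.82 without controls 1 and 2. In both genes the groups overlapped over most of their range.

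Hic1 lay at 36.1, 119.5, 110.2, 16.6 and 88.1 CPM in deleted libraries and at 79.4, 50.0, 44.1 and 27.7 CPM in controls (0.56 ± 0.55 SE, edgeR adjusted p = 0.613, and 1.01 without controls 1 and 2). Col1a1 lay at 1013, 1960.5, 1465, 561 and 1518 CPM against 1054, 1262, 960.1 and 628 CPM (0.42 ± 0.35 SE, edgeR adjusted p = 0.564, and 0.68 without controls 1 and 2). Deleted library 4 was lowest in both. Tnc, Lama4, S1pr3 and Zeb2 gave log2 fold changes of -0.71 to 0.14 (edgeR adjusted p = 0.578 to 0.970). Mesenchymal markers, 8 of 8 with counts in every library, summed to 3327, 6374, 4754, 2170 and 5407 CPM in deleted libraries and to 6511, 7774, 3486 and 2267 CPM in controls, and their part in these levels was not tested.

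**Figure D5:**
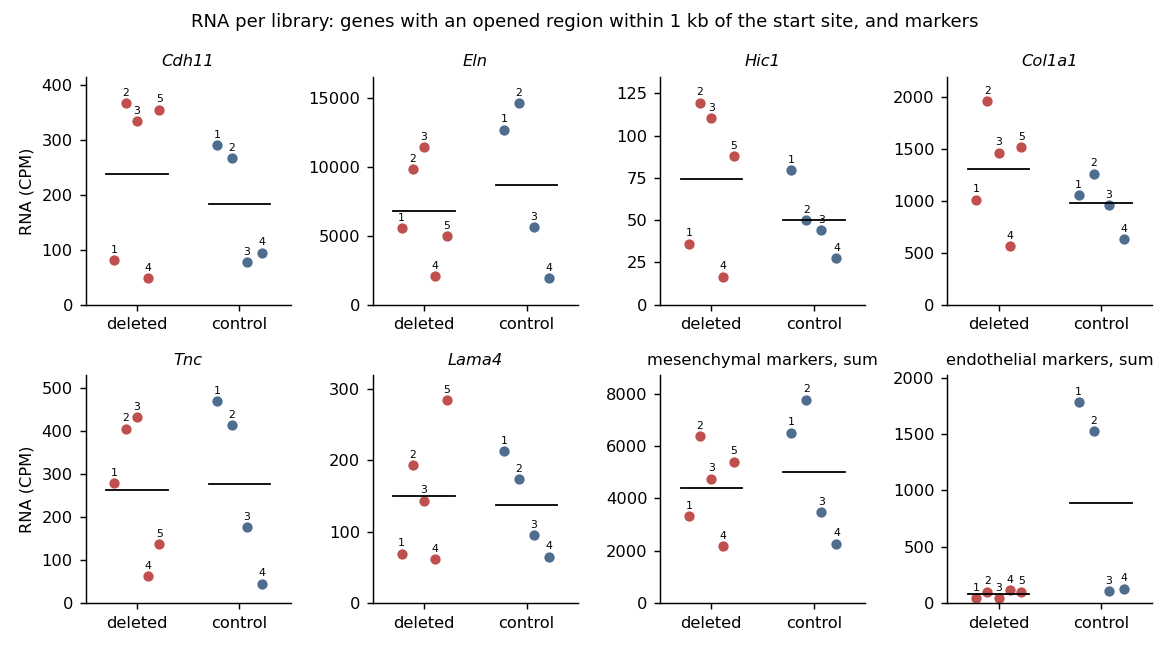
RNA (CPM, axes from 0) of 6 genes with an opened region within 1 kb of the start site, and the summed CPM of 8 mesenchymal and 8 endothelial markers, in 5 Yap deleted and 4 control libraries. Points are libraries with their numbers and lines are group means; the groups overlap for all 6 genes, and the endothelial sum is high only in controls 1 and 2.

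No gene of the 10 highest-scoring regions had an edgeR adjusted p under 0.05. Tspan8 lay at 53.7, 20.6, 36.03, 18.2 and 14.9 CPM in deleted libraries and at 51.5, 40.9, 87.2 and 51.0 CPM in controls, with overlap through deleted library 1 (-1.01 ± 0.40 SE, edgeR adjusted p = 0.300). Bod1, for a protein of chromosome biorientation, lay at 47.0, 46.5, 44.6, 45.4 and 44.2 CPM against 31.0, 33.9, 42.4 and 40.3 CPM, with no overlap (0.30 ± 0.11 SE, edgeR adjusted p = 0.280, and 0.11 without controls 1 and 2). C1galt1, Slc35f1, Adgrl3, Sbk3, Prkcd and Tenm4 gave log2 fold changes of -0.71 to 0.69 (edgeR adjusted p = 0.421 to 0.770). Aebp2, with its 3 regions, lay at 65.8, 77.6, 75.5, 78.4 and 75.6 CPM against 117, 107, 70.2 and 84.6 CPM (-0.35 ± 0.15 SE, edgeR adjusted p = 0.325, and -0.09 without controls 1 and 2). The row of 3100003L05Rik held 0 counts in all libraries.

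Among pathway genes with opened regions, Smad7, for an inhibitor of TGF-beta signalling, lay at 81.0, 86.4, 69.9, 60.02 and 64.0 CPM in deleted libraries and at 149, 109, 113 and 65.1 CPM in controls (-0.59 ± 0.22 SE, edgeR adjusted p = 0.280, and -0.33 without controls 1 and 2). Its groups overlapped through control 4. Rbms3, for an RNA-binding protein, lay at 66.0 to 107 CPM against 204, 199, 71.7 and 109.7 CPM (-0.77 ± 0.31 SE, edgeR adjusted p = 0.304, and -0.11 without controls 1 and 2). Axin2 and Smad3, of Wnt and TGF-beta signalling, the transcription factors Elf5 and Etv4, and Dnah5, for a dynein chain of cilia, gave log2 fold changes of -0.39 to 0.77 (edgeR adjusted p = 0.384 to 0.910). Dnah5 lay at 53.1, 46.8, 79.7, 199 and 102 CPM in deleted libraries and at 31.7, 15.1, 87.4 and 91.6 CPM in controls, and its groups overlapped. Controls 1 and 2, lowest in Dnah5, were also lowest in the summed ciliated markers, all 4 of which had counts in every library, and the part of these markers in the result was not tested.

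The same genes were read in the Yap active line, whose RNA controls are other samples. There edgeR called 0 of 390 (0.0% of all 15685 genes), with 15 higher (3.85%, against 6.65% of all genes) and 35 lower (8.97%, against 5.98%) at an unadjusted p under 0.05. DESeq2 called 0 of 392, where it called 0.0694% of all genes. Leaving out 1 library gave 4 to 49 higher and 8 to 111 lower. Without active library 1 there were 44 and 111 (11.3% and 28.6%, against 18.4% and 19.3% of all genes). Without control 4 there were 49 and 80 (12.5% and 20.4%, against 20.3% and 14.6%). Without control 3 there were 5 and 8 (1.28% and 2.05%, against 1.71% and 2.16%). The replicate block gave 15 and 61 (3.85% and 15.6%, against 5.62% and 6.66%). The median log2 fold change was -0.17, against -0.01 over all genes. Slc19a2 and Trp53cor1 had log2 fold changes of 0.56 ± 0.24 and 1.33 ± 0.88 SE there, and Ahnak and Pdgfc -0.02 ± 0.31 and 0.10 ± 0.44 SE (edgeR adjusted p = 0.366 to 0.969). Differences between the lines were not tested.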

How the data were processed

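The authors deposited RNA read counts per gene, whole numbers in 1 table per line (per the file headers), and region lists annotated by HOMER with a score of unstated scale. The authors' broad peak lists give a fold enrichment and a −log10 q per peak (deposited without headers, read by the format's column order). Trim Galore, Bowtie2, Cufflinks, DESeq, HOMER and mm10 are named in the submitters' processing notes, without versions or the step each served.

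Low genes were dropped by filterByExpr, and counts with TMM factors were tested in edgeR 4.0.16 (robust quasi-likelihood, two-sided, Benjamini-Hochberg over all genes) in R 4.3.3; CPM uses the scaled library sizes. DESeq2 1.42.0 and limma-voom 3.58.1 were alternatives. The fits were tried on simulated data. Region lists were intersected with bedtools 2.31.1 and shares given Clopper-Pearson intervals. Genes follow the authors' annotation, 477 matched by name and 12 by alias. Spreadsheet dates replaced 27 gene names. Unused sample columns numbered 0. Replicate numbers are not stated to mark pairs, so the main fit had no block. Same-number correlations were -0.26 to 0.47 in the Yap deleted line and 0.04 to 0.57 in the Yap active line. They were highest with the same number for controls 2 and 4 of the first line and controls 1 and 4 of the second, so pairing was not settled. Without a genome, motifs were searched in RefSeq promoter windows in place of whole regions.

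Members and gene lists were chosen with earlier results of these data known. Genes are named by rule: the 10 highest-scoring regions, genes with 3 or more regions, regions within 1 kb of a start site, genes of the lists, and the 5 smallest p per direction at a mean of at least 1 CPM.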

Additional observations from a re-analysis of the deposited data

Results flagged for a closer look

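In 80 groups of library values (the deleted and the control libraries of 40 genes), Dixon's ratio set 2 libraries apart from the others of their group, where chance flags about 1 group in 20. Aebp2 was at 65.8 CPM in deleted library 1, below the other 4. Ripply3 was at 2.18 CPM in deleted library 5, above the other 4.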

How the results depend on the processing

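Over all genes of the Yap deleted line, DESeq2 called 871, limma-voom with sample weights 0, the replicate block 0, and leaving out 1 library 0 to 4, against 1. In the Yap active line DESeq2 called 11 and leaving out 1 library 0 to 2, against 0. Among genes named for opened regions DESeq2 called 27 and every other fit run 0. At an unadjusted p under 0.05, leaving out 1 library gave 11 to 30 higher and 27 to 71 lower, against 22 and 42 (30 and 71 without control 4, 12 and 27 without control 1, 27 lower without control 2, and 11, 14, 13 and 14 higher without deleted libraries 1 to 4); without controls 1 and 2 there were 13 and 16, limma-voom gave 23 lower and the replicate block 27 lower. Genes within 10 kb gave 6.34% lower, against 9.18% of all genes. The median log2 fold change ran from -0.21 to -0.02 when 1 library was left out. Whether shared replicate numbers mark pairs is not known.

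Of 25 named genes, 22 kept their direction in every alternative run. Cdh11 turned to -0.10 under the replicate block, and Eln to 0.30 under limma-voom, 0.82 without controls 1 and 2 and 0.00827 without control 2 (leave-one-out range -0.72 to 0.00827). Tmod2 turned to 0.45 without controls 1 and 2. DESeq2 put 15 of the 25 past an adjusted p of 0.05.

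Promoters took 12.4% of the higher-scoring 50% of regions. Overlap with regions opened in the Yap active line was 10.5% there, and 4.14% with at least 50% of the region covered. For the active peak lists that coverage left 0.752% and 0.0%, and for the control lists 0.0% and 0.752%. Active peaks had median lengths of 142 and 100 bases and control peaks of 152 and 125, against 1207 for the opened regions. Peaks so short seldom cover 50% of a region, so this limit cannot show whether the peak overlaps hold. The higher-scoring regions overlapped the first active list by 40.2% and the second control list by 56.0%. Requiring a −log10 q of 1.3, chosen after seeing the data, left 0.0%, 0.0% and 0.188%. That limit kept only 372, 35 and 7 peaks, too few to judge the overlaps. Causes were not tested. Motifs over whole regions were not run. A single control ATAC library, and no counts per region, leave the opening itself without a replicate check.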

Other observations

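The genes below fall outside the rule and were chosen after their values were seen. Lrp5, for a Wnt coreceptor, had an opened region 12.2 kb past its start site (chromosome 19, 3673668 to 3675021, score 22.85). Its RNA lay at 369, 381, 377, 507 and 525 CPM in deleted libraries and at 222, 206, 272 and 356 CPM in controls, with no overlap (log2 fold change 0.71 ± 0.20 SE, edgeR adjusted p = 0.247). Ldhd, for a lactate dehydrogenase of the D form, lay at 20.7, 15.0, 21.6, 21.5 and 26.0 CPM against 5.10, 4.70, 12.4 and 13.1 CPM, again with no overlap (1.25 ± 0.35 SE, edgeR adjusted p = 0.247).

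The annotation named 22 genes for both an opened and a closed region of the Yap deleted line, among them Hic1, Prkcd, Rara, Robo1, Ntrk2 and Galnt2.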
